A study of Saccharomyces cerevisiae with 72 samples.

Results

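The nuclear genes of the respiratory chain and the tricarboxylic acid (TCA) cycle were followed through sporulation of budding yeast. The list was fixed by systematic name and held 48 genes: the subunits of complexes II, III and IV, the cytochrome c isoforms CYC1 and CYC7, the internal NADH dehydrogenase NDI1, the ATP synthase, its inhibitor INH1, and the mitochondrial TCA cycle enzymes. Of these, 47 had a value in all 36 columns of the table and 1 was not analysed here, out of 6496 genes for which no column was empty. The 47 comprised 4 genes of complex II, 9 of complex III, 2 of cytochrome c, 9 of complex IV, 12 of the ATP synthase, 9 TCA cycle enzymes, INH1 and NDI1.

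All strains were diploids of the S288c background, grown in glucose, then in acetate medium, and moved to potassium acetate, the sporulation medium, where polyA RNA was taken at 0, 2, 4, 6, 8 and 12 h. At each time kar4Δ/Δ, which lacks both copies of KAR4 (a homolog of the METTL14 subunit of the mRNA methyltransferase), was compared with wild type (WT). This was done in 3 promoter backgrounds. The first had both Pzev promoters, meaning that an estradiol-inducible promoter drove IME1, the master activator of meiosis, and RIM4, an RNA-binding regulator of meiotic translation. The second had Pzev-IME1 only, and the last had the endogenous promoters. Estradiol was given on transfer to the sporulation medium in experiments with overexpression. Whether cultures with endogenous promoters received it is not stated, so its effects and those of the promoters cannot be told apart. The inducible alleles are heterozygous and depend on an artificial activator, Z3EV, that the strains also carry. The kar4 alleles carry selection markers, whose effects and that of the deletion cannot be told apart. Each of the 36 conditions had 2 replicates, 72 libraries in all, but the deposited table gives 1 value per condition, so no replicate spread exists and no difference below was tested.

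Every level below is the authors' log2 fold change against WT with endogenous promoters at 0 h, which is 0 by construction, and 1 on this scale is 2-fold. A difference between conditions is the subtraction of these values, and a difference of at least 2-fold was counted as a size, not as a significant change. The SD over all genes of a column was 0.70 to 2.11 (both Pzev), 0.77 to 1.17 (Pzev-IME1) and 0.43 to 0.72 (endogenous), while column medians over all genes lay between −0.03 and 0.02. Values spread most widely with both Pzev promoters, and the share of all genes at the same size is given with the counts of each comparison. KAR4 itself checked the labels. In kar4Δ/Δ at 12 h it stood at −8.33 (both Pzev), −4.54 (Pzev-IME1) and −4.88 (endogenous), but at only −0.55 in kar4Δ/Δ with endogenous promoters at 0 h, so that the column labelled kar4Δ/Δ, 0 h, endogenous promoters did not show the deletion. Depth is unknown, and in cultures of mixed cells fewer cells of a type and less RNA per cell cannot be told apart.

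Respiration is required for sporulation, in which acetate serves as the source of energy through mitochondrial oxidation. The TCA cycle feeds electrons to the chain through NADH, taken up in yeast by NDI1, and through succinate dehydrogenase (complex II). Complex III passes them to cytochrome c and complex IV to oxygen, and the ATP synthase uses the resulting proton gradient. The HAP complex (HAP2, HAP3, HAP4 and HAP5) binds CCAAT boxes and activates many of these genes on respiratory carbon sources, with HAP4 as its limiting, activating subunit. Some subunits have oxygen-regulated isoforms: COX5A and CYC1 are the aerobic forms, and COX5B and CYC7 are the forms favoured at low oxygen.

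The promoters were searched for the HAP box, because it is the sequence these genes are best known to share. In the 500 bases before each annotated start codon, CCAAT on either strand occurred in 42 of 47 promoters (89.4%), against 62.7% of all 5880 promoters, and the longer form TNATTGGT, on either strand, occurred in 17 of 47 (36.2%), against 8.67% of all. The longer form overlaps CCAAT. The 17 sites lay 73 to 351 bases before the start, with a median of 206, and belonged to 6 genes of the ATP synthase, 5 of complex IV, 3 of complex III, SDH1, NDI1 and ACO1. The following sites are shown because they come from genes on both sides of the late split described below. Each is 30 bases of the RefSeq R64 sequence (sacCer3), 5′ to 3′ on the gene's own strand, with the HAP box in capitals.

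COR1, chrII:135849-135878, minus strand: acgctttctgcACCAATGAaatgccaataa
COX12, chrXII:225360-225389, minus strand: tcataacattgACCAATCAattttcagaaa
COX13, chrVII:144584-144613, plus strand: ttttttttcccACCAATGAgaggcggtact
ATP14, chrXII:722553-722582, minus strand: gccatacacgaACCAATTAtgcatcataaa
ATP17, chrIV:1228370-1228399, plus strand: ttacggagagaACCAATCAtatcgaaggat
NDI1, chrXIII:30017-30046, minus strand: tattcattcggACCAATCAtatgaaggcat
ACO1, chrXII:737821-737850, minus strand: caaaggtcctgACCAATCAatagagaaatt

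With both Pzev promoters at 12 h, genes with the longer box had the lower median level in both genotypes, but not in every other column. At 12 h in WT with both Pzev promoters, the 17 genes with the longer box had a median level of −0.64 and the 30 without it −0.27. In kar4Δ/Δ with both Pzev promoters the medians were −1.51 with it and −1.24 without it. In WT with Pzev-IME1 at 6 h the order was the other, with −0.14 for genes with it and −0.42 for genes without it. CIT1, KGD1, KGD2, LSC1, LSC2, CYC1 and CYC7 had no match to the longer form in this window.

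Meiotic factors have sites of their own. Ume6, the DNA-binding partner through which Ime1 activates early meiotic genes, binds the URS1 element, and AGCCGCC on either strand, a core of URS1, was searched after the values had been seen. It occurred in the promoters of ATP2, ATP20, CIT1, RIP1 and SDH1, 5 of 47 (10.6%), against 4.18% of all promoters. The shorter GGCGGC occurred in 12 of 47 (25.5%), against 9.64% of all. For Ndt80, the activator of middle meiotic genes, CACAAA occurred in 15 of 47 (31.9%), against 30% of all, and the longer GNCACAAA in KGD2 only (2.13%), against 7.04% of all. The ATP20, SDH1 and RIP1 matches are shown because these genes were high in the Pzev-IME1 strains, and the CIT1 match because CIT1 was low there at 2 h. SDH2, SDH4, CYT1, CYC1 and CYC7, also high in WT with Pzev-IME1 at 2 h, had no AGCCGCC match.

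ATP20, chrXVI:599668-599697, plus strand: tcgattgagtgGGCGGCTtttttcttattc
SDH1, chrXI:171296-171325, minus strand: tgccacgtcgaGGCGGCTtgaagcttaaat
RIP1, chrV:106850-106879, plus strand: ttgaaataactAGCCGCCtttaattcgagc
CIT1, chrXIV:631391-631420, minus strand: ttttccgccgcAGCCGCCcggaaatgaaaa

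Capitals mark the URS1 core on the strand where it was found. The ATP2 match lay inside the coding sequence of a neighbouring gene and is not shown. A further RIP1 match, farther from the start, is not shown either.

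**Figure D1:**
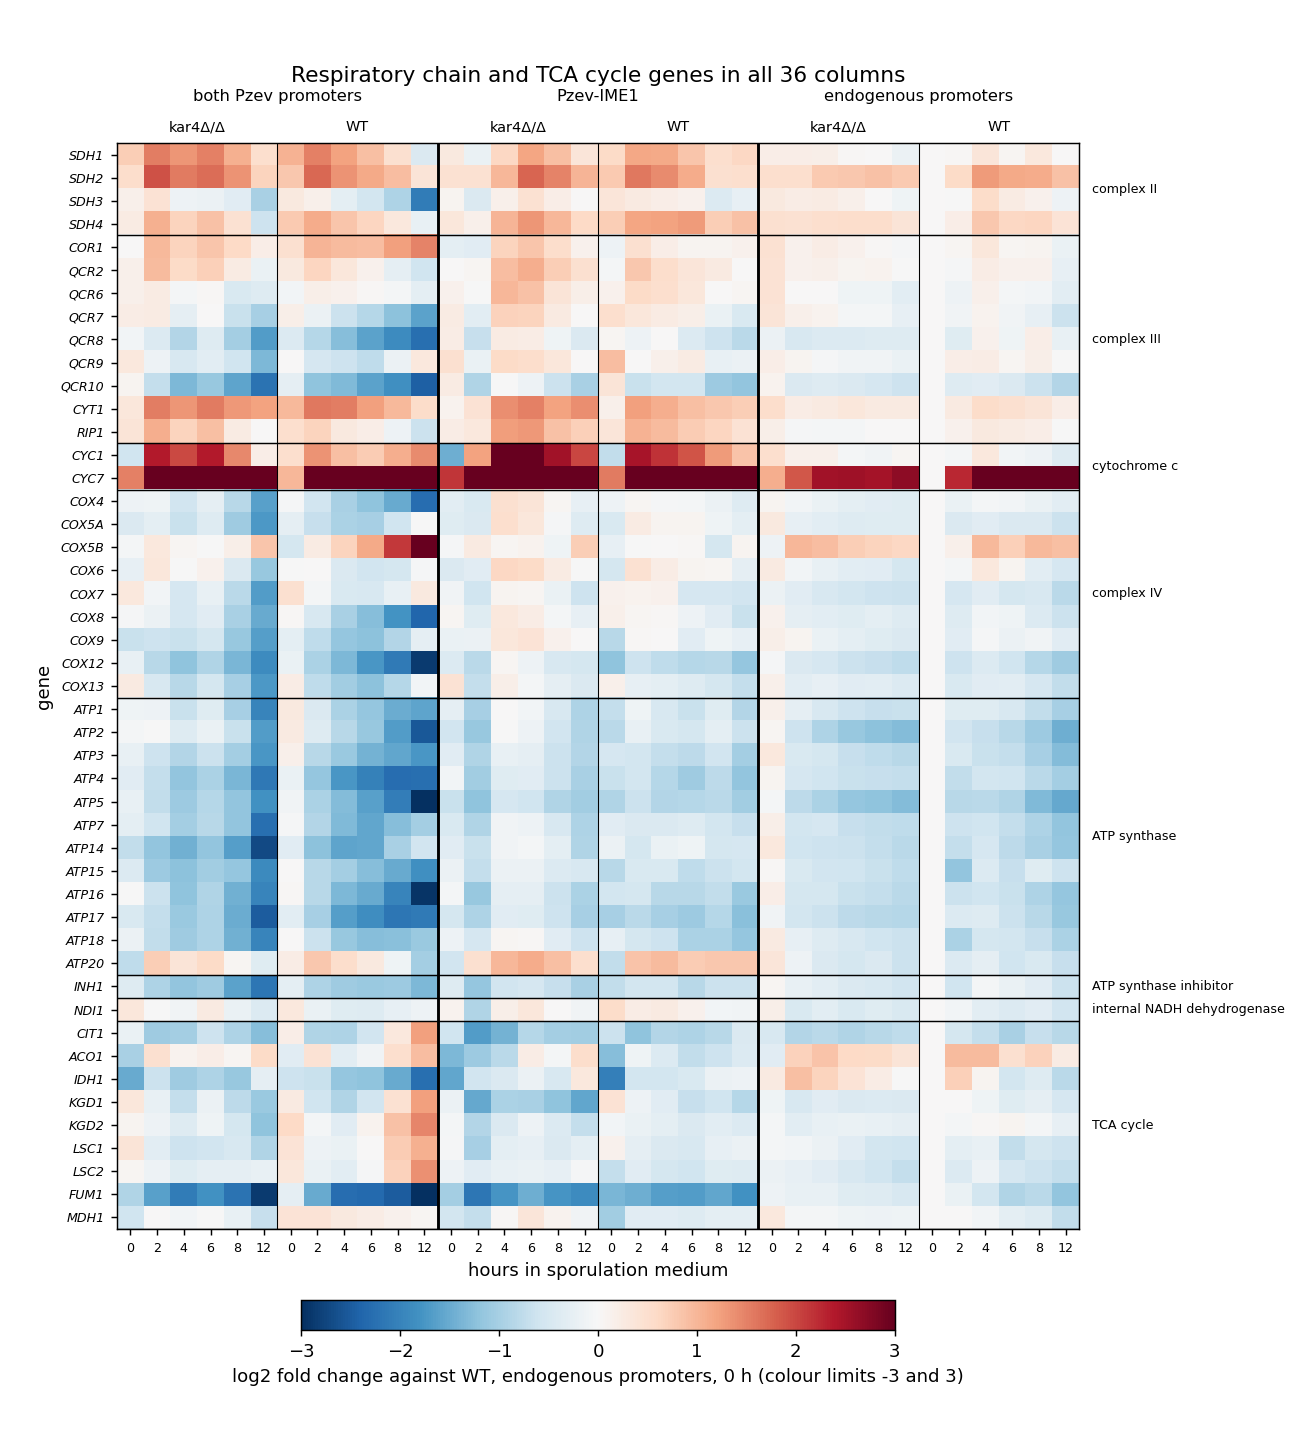
Log2 fold change against WT with endogenous promoters at 0 h for the 47 genes (rows, grouped by complex) in all 36 columns, ordered by promoter background, genotype and hours in sporulation medium; colours stop at −3 and 3. CYC7 was above 0 in all 35 columns other than the reference, FUM1 was below 0 in all 35, and the columns with both Pzev promoters hold the lowest ATP synthase values.

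With endogenous promoters the genes were mostly lower at 12 h than at 0 h, chiefly those of the ATP synthase. Their median level in WT was 0, −0.30, −0.09, −0.31, −0.37 and −0.63 at 0, 2, 4, 6, 8 and 12 h. In kar4Δ/Δ it was 0.17, −0.22, −0.25, −0.37, −0.37 and −0.43 at the same times. At 12 h relative to 0 h, 10 of 47 genes were at least 2-fold lower in WT, against 3.96% of all genes, and 1, CYC7, was at least 2-fold higher, against 6.33% of all genes. In kar4Δ/Δ 6 were lower, against 5.37% of all genes, and CYC7 alone was higher, against 5.22% of all genes. Quantile normalization gave all columns 1 common distribution, except the reference, WT with endogenous promoters at 0 h, which was kept at 0. After it, 17 were lower and 3 higher in kar4Δ/Δ, against 15.4% and 14.1% of all genes on that scale. In WT, 20 were lower and 3 higher, against 9.02% and 10.1%. The WT counts subtract the unscaled reference, so they and the kar4Δ/Δ counts are not on the same scale. The kar4Δ/Δ counts use the 0 h column in which KAR4 was near its WT level. Of the 12 ATP synthase genes, all 12 were below their 0 h level at 12 h in both genotypes. Their median difference was −0.98 in kar4Δ/Δ and −1.14 in WT, against 0.008 and −0.01 over all genes.

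The lowest genes of the endogenous course were in the ATP synthase. ATP5 (YDR298C, chromosome IV, 1058176 to 1058814), which encodes the stalk subunit that joins the catalytic head to the membrane part, read 0, −0.83, −0.80, −0.89, −1.32 and −1.54 in WT from 0 to 12 h. In kar4Δ/Δ it read −0.07, −0.78, −0.94, −1.16, −1.21 and −1.29. ATP2, the catalytic beta subunit, ended at −1.30 in kar4Δ/Δ and −1.48 in WT, and ATP3, the gamma subunit of the rotor, at −0.84 in kar4Δ/Δ and −1.29 in WT. INH1 (YDL181W), which blocks ATP hydrolysis by the enzyme, was at −0.57 in kar4Δ/Δ and −0.63 in WT at 12 h. SDH2, the iron-sulfur subunit of complex II, was above 0 in all 35 columns, at 0.79 in kar4Δ/Δ and 0.88 in WT at 12 h. The other complex II genes were nearer 0 at 12 h: SDH1 was at −0.18 in kar4Δ/Δ and 0.01 in WT, SDH3 at −0.13 in kar4Δ/Δ and −0.15 in WT, and SDH4 at 0.39 in kar4Δ/Δ and 0.41 in WT.

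Among the TCA enzymes with endogenous promoters, ACO1 (aconitase) and IDH1 (a subunit of NAD-dependent isocitrate dehydrogenase) were high at 2 h and lower afterwards. ACO1 read 0.95 in WT at 2 h and 0.24 at 12 h, and 0.69 and 0.40 in kar4Δ/Δ at those times. IDH1 read 0.71 in WT at 2 h and −0.81 at 12 h, and 0.90 and −0.01 in kar4Δ/Δ. CIT1 (citrate synthase) was between −0.52 and −0.98 in WT from 2 h on. FUM1 (fumarase) stood at −0.47 in kar4Δ/Δ and −1.19 in WT at 12 h. NDI1 (YML120C) was at −0.47 in kar4Δ/Δ and −0.58 in WT.

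With Pzev-IME1, several genes of complexes II and III and both cytochrome c genes were at least 2-fold above the common reference in WT at 2 h. At that time SDH1 was at 1.17, SDH2 at 1.59, SDH4 at 1.18, CYT1 (cytochrome c1 of complex III) at 1.22 and RIP1 (the Rieske iron-sulfur protein) at 1.04, but SDH3 was at 0.27. In kar4Δ/Δ at 2 h SDH1 was at −0.20 and SDH3 at −0.44. SDH1, the flavoprotein subunit, has a close paralog, SDH9, and reads that match both genes could have been lost or shared in the counting. At 12 h relative to 0 h, 6 of 47 genes were at least 2-fold higher in kar4Δ/Δ, against 19.2% of all genes, and 2 were lower, against 9.93% of all genes. In WT 4 were higher, against 25.2% of all genes, and 3 were lower, against 14.5% of all genes. Both directions were thus less frequent among these genes than over the table.

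The genes behind those counts were few. Higher at 12 h than at 0 h were CYC1 (3.47), CYC7 (2.99), ACO1 (1.88), IDH1 (1.88), CYT1 (1.29) and ATP20 (1.08) in kar4Δ/Δ, and IDH1 (1.90), CYC7 (1.75), CYC1 (1.59) and ATP20 (1.54) in WT. Lower were KGD1 (−1.37) and QCR10 (−1.22) in kar4Δ/Δ, and QCR10 (−1.56), KGD1 (−1.28) and QCR9 (−1.09) in WT. KGD1 encodes the dehydrogenase subunit of the 2-oxoglutarate dehydrogenase complex, and QCR9 and QCR10 are small subunits of complex III. The CYC7 differences turned to −0.92 in kar4Δ/Δ and −0.63 in WT after quantile normalization, so their direction depends on the scale.

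ATP20 (YPR020W, chromosome XVI, 599870 to 600217), a subunit g of the membrane part that takes part in joining ATP synthases into dimers, did not follow the other ATP synthase genes in the Pzev-IME1 strains. In WT with Pzev-IME1 it read −0.73, 0.85, 0.94, 0.76, 0.81 and 0.80 from 0 to 12 h. In kar4Δ/Δ with Pzev-IME1 it read −0.57, 0.47, 1.00, 1.12, 0.91 and 0.51. At 12 h the other 11 genes of the complex lay between −1.05 and −0.47 in kar4Δ/Δ and between −1.25 and −0.50 in WT. With endogenous promoters ATP20 was at −0.64 in kar4Δ/Δ and −0.70 in WT at 12 h, inside the range of the complex. With both Pzev promoters it departed too, at 0.74 in kar4Δ/Δ and 0.81 in WT at 2 h, where the other 11 were below 0. At 12 h in that background it was at −0.37 in kar4Δ/Δ, above the others, and at −1.02 in WT, inside their range.

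The Pzev-IME1 strains were next set against those with endogenous promoters at 12 h. In kar4Δ/Δ 4 of 47 genes were at least 2-fold higher, against 7.47% of all genes: CYC7 (2.45, but −0.27 after quantile normalization), CYC1 (1.96), ATP20 (1.16) and CYT1 (1.13). FUM1 (−1.41) and KGD1 (−1.12) were lower there, against 5.34% of all genes. In WT ATP20 (1.5) and CYC1 (1.24) were higher, against 10.8% of all genes, and no gene was at least 2-fold lower, against 8.37% of all genes. After quantile normalization 7 were higher and 2 lower in WT (CYC7 at −2.41 and COX5B at −1.11), against 9.14% and 9.56% of all genes on that scale, and 5 were higher and 1 lower in kar4Δ/Δ, against 6.48% and 6.39%. The Pzev-IME1 strains already differed at 0 h: IDH1 was at −1.55 in kar4Δ/Δ and −2.05 in WT with Pzev-IME1, against 0.27 in kar4Δ/Δ and 0 in WT with endogenous promoters. The value of 0.27 comes from the kar4Δ/Δ column that did not show the deletion. FUM1 was at −1.01 in kar4Δ/Δ and −1.38 in WT with Pzev-IME1 at 0 h.

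**Figure D2:**
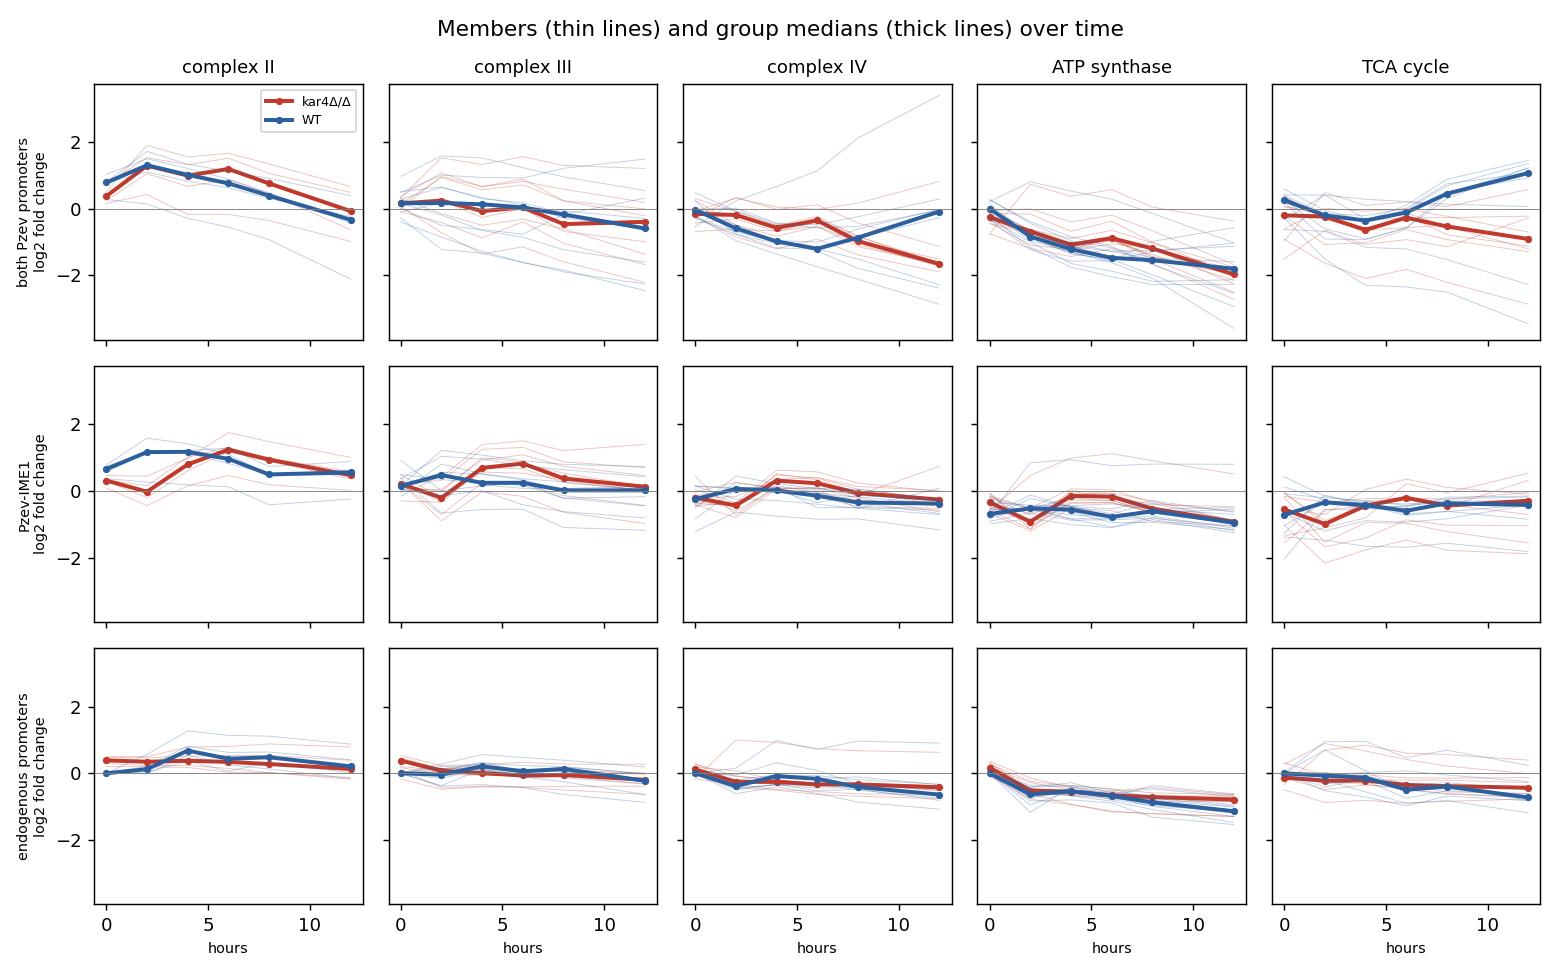
Log2 fold change (vertical axis) against hours in sporulation medium for 5 groups of genes (columns) in 3 promoter backgrounds (rows); thin lines are single genes, thick lines with points are group medians, red is kar4Δ/Δ and blue is WT. With both Pzev promoters the TCA cycle medians part late, at −0.90 in kar4Δ/Δ and 1.08 in WT at 12 h, while the ATP synthase medians end at −1.97 in kar4Δ/Δ and −1.80 in WT.

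With both Pzev promoters, the WT genes divided late. The median level of the 47 was 0.14, −0.43, −0.84, −0.76, −0.61 and −0.56 in WT from 0 to 12 h, and −0.07, −0.16, −0.50, −0.28, −0.78 and −1.29 in kar4Δ/Δ. At 12 h relative to 0 h, 28 of 47 genes were at least 2-fold lower in kar4Δ/Δ, against 18.5% of all genes, and 3 were higher (ACO1, IDH1 and CYC7, the last at −0.34 after quantile normalization), against 20.6% of all genes. In WT 23 were lower, against 21.3% of all genes, and 6 were higher (CYC7, COX5B, ACO1, CIT1, LSC2 and COR1), against 26.6% of all genes. After quantile normalization 10 were lower and 2 higher in kar4Δ/Δ, against 15.5% and 16.3% of all genes on that scale. In WT 17 were lower and 1, COX5B (1.99), was higher, against 12.8% of all genes in either direction, so the higher count in WT depends on the scale.

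The TCA enzymes showed the late division most plainly. CIT1 (YNR001C, chromosome XIV, 629622 to 631061), citrate synthase, read 0.20, −0.91, −0.93, −0.58, 0.31 and 1.24 in WT with both Pzev promoters from 0 to 12 h. In kar4Δ/Δ it read −0.19, −1.07, −1.02, −0.62, −0.92 and −1.29. The 2 courses ran together until 6 h and lay apart at 8 and 12 h. KGD1 (YIL125W) ended at −1.11 in kar4Δ/Δ and 1.22 in WT, and KGD2 (YDR148C), the succinyltransferase of the same enzyme complex, at −1.20 in kar4Δ/Δ and 1.46 in WT. LSC1 and LSC2, the subunits of succinyl-CoA ligase, were at −0.90 and −0.22 in kar4Δ/Δ and at 1.08 and 1.36 in WT.

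Other TCA enzymes did not share this course. FUM1 (YPL262W, chromosome XVI, 47336 to 48802) was low in both genotypes, at −2.86 in kar4Δ/Δ and −3.45 in WT at 12 h. IDH1 (YNL037C) was higher in kar4Δ/Δ, at −0.27, than in WT, at −2.27. MDH1, the mitochondrial malate dehydrogenase, was at −0.70 in kar4Δ/Δ and 0.07 in WT, and ACO1 at 0.58 in kar4Δ/Δ and 0.93 in WT. Within the TCA cycle the pairwise correlation of courses over the 35 columns had a median of 0.21 and ran from −0.44 to 0.89, whereas within the ATP synthase it had a median of 0.81 (0.08 to 0.96). These columns share a reference, so the correlations are descriptions.

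Complex IV divided in the same background. COX4, COX8 and COX12 were at −1.62, −1.51 and −1.89 in kar4Δ/Δ at 12 h, and at −2.28, −2.38 and −2.87 in WT. COX5A, COX7, COX9 and COX13 were at −1.71, −1.69, −1.65 and −1.72 in kar4Δ/Δ, but at −0.01, 0.30, −0.26 and −0.08 in WT. COX6 stood at −1.13 in kar4Δ/Δ and −0.03 in WT. Apart from COX5B, all complex IV genes were thus below −1 in kar4Δ/Δ at 12 h, while in WT they fell into separate levels. All are nuclear-encoded subunits around the mitochondrially encoded catalytic core.

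In the ATP synthase every gene was below the reference at 12 h in both genotypes, but the genotypes differed in both directions. ATP5 ended at −1.82 in kar4Δ/Δ and −3.59 in WT, ATP16 (the delta subunit of the rotor) at −1.97 in kar4Δ/Δ and −2.93 in WT, and ATP2 at −1.67 in kar4Δ/Δ and −2.53 in WT. ATP14 (subunit h of the peripheral stalk; YLR295C) went the other way, with −2.71 in kar4Δ/Δ and −0.56 in WT, as did ATP7 (subunit d of the stalk), with −2.25 in kar4Δ/Δ and −1.03 in WT. INH1 was at −2.16 in kar4Δ/Δ and −1.36 in WT. Between 6 and 12 h, a span chosen after the values were seen, 5 of 47 genes had a positive difference in kar4Δ/Δ and 20 in WT, against 49.4% and 51.2% of all genes. Over that span ATP14 (0.99), ATP7 (0.53) and ATP18 (0.15) rose in WT, and the other ATP synthase genes fell. In kar4Δ/Δ all genes of the ATP synthase fell.

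**Figure D3:**
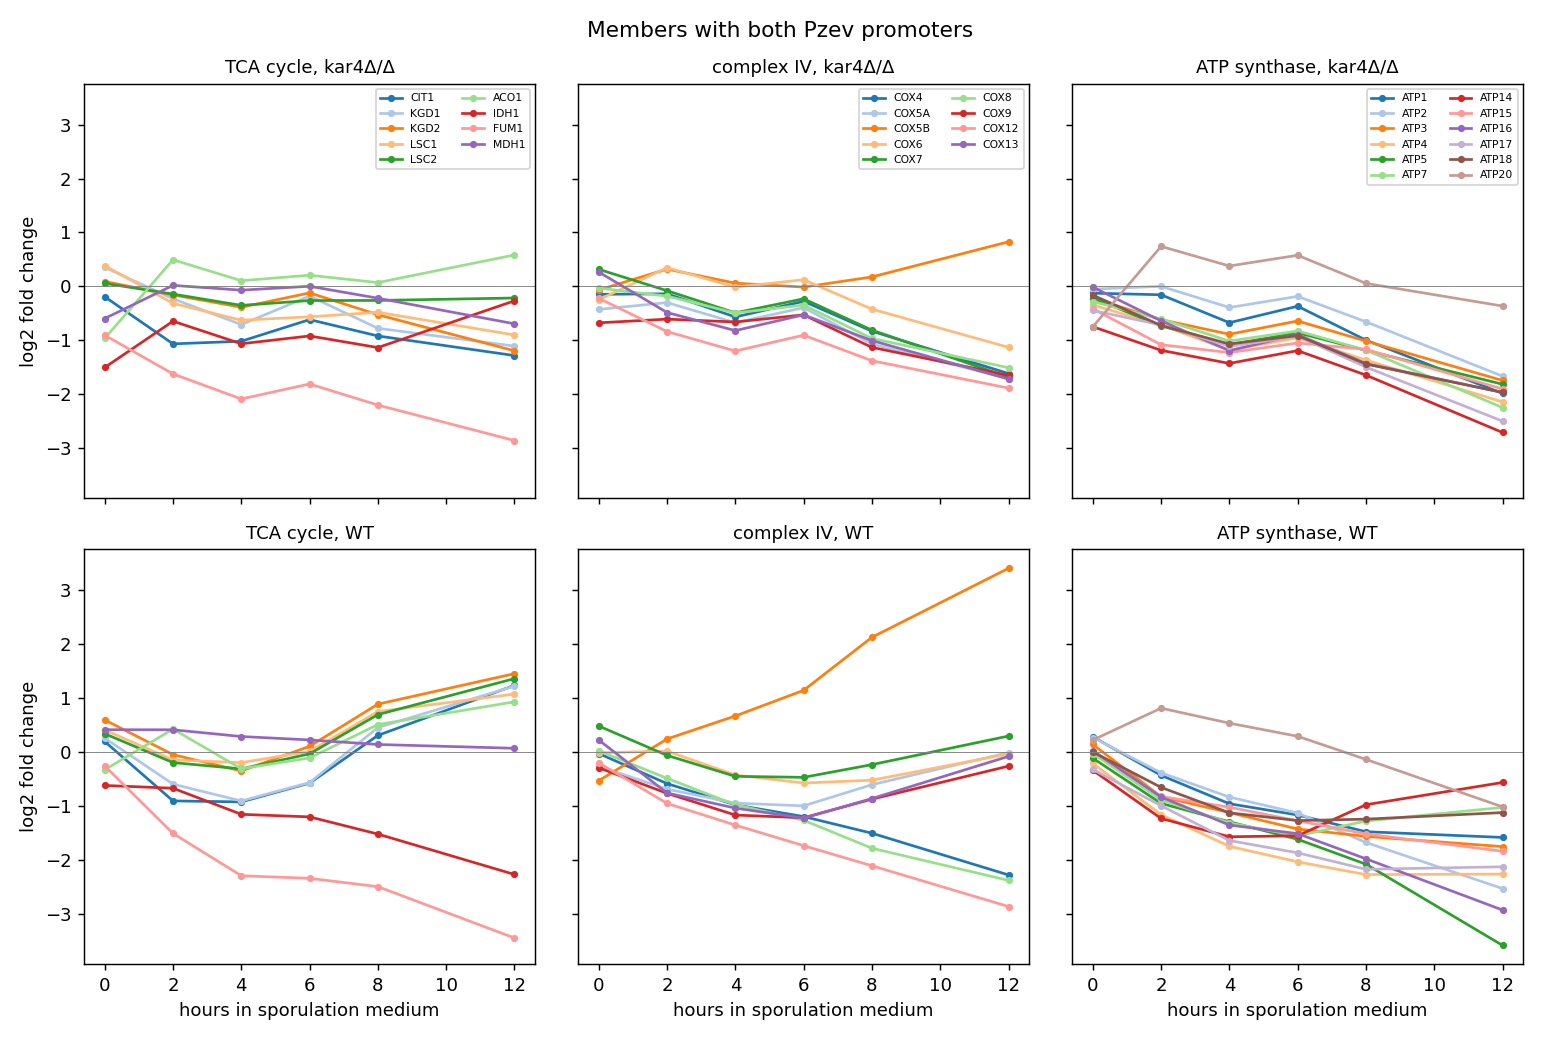
Log2 fold change against hours in sporulation medium with both Pzev promoters, for single genes of the TCA cycle, complex IV and the ATP synthase (columns of panels), in kar4Δ/Δ (top) and WT (bottom). CIT1, KGD1, KGD2, LSC1 and LSC2 end between −1.29 and −0.22 in kar4Δ/Δ and between 1.08 and 1.46 in WT, and COX5B ends at 0.83 in kar4Δ/Δ and 3.41 in WT.

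The direct comparison of kar4Δ/Δ with WT asked whether loss of Kar4 altered these genes in each background. With both Pzev promoters at 12 h, 16 of 47 genes were at least 2-fold lower in kar4Δ/Δ, against 25.2% of all genes, and SDH3, ATP5 and IDH1 were at least 2-fold higher, against 17.9% of all genes. The lower genes included 5 of 9 TCA enzymes and 6 of 9 complex IV genes. The median difference was −1.58 for the TCA enzymes, −1.39 for complex IV, −0.03 for the ATP synthase, 0.38 for complex III and 0.59 for complex II. It was −0.34 over all 47, against −0.006 over all genes. The genotypes already differed at 0 h, where the median of the 47 was −0.17 with 37 below 0. Counted from each strain's own 0 h, the median at 12 h nearly vanished, as given below. The largest were KGD2 (−2.65), COX5B (−2.58), CIT1 (−2.52), KGD1 (−2.33), ATP14 (−2.15), COX7 (−1.98) and LSC1 (−1.98). IDH1 was higher by 2.00, ATP5 by 1.77 and SDH3, a membrane anchor of complex II, by 1.13. After quantile normalization 9 genes were lower and 2 higher, against 8.48% and 7.30% of all genes on that scale.

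At 8 h in that background the median difference of the 47 genes was 0.19, against 0.08 over all genes, with 19 of the 47 below 0 and 28 above 0. The median fell below 0 after quantile normalization, and the mean of the 47 was below 0 without it. COX5B (−1.96), KGD2 (−1.42), LSC1 (−1.23), KGD1 (−1.23), CIT1 (−1.23) and CYC7 (−1.22) were at least 2-fold lower in kar4Δ/Δ, 6 of 47, against 17.6% of all genes. ATP2 (1.02) was the 1 gene higher, against 12.8% of all genes. At 12.8%, the share lower was below that of the table. After quantile normalization none was 2-fold lower or higher, and the CYC7 difference turned to 0.89.

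HAP4 and NDT80 differed between the genotypes in the same columns. HAP4 read −0.26, 0.32, 0.09, 0.66, −0.17 and −0.86 in kar4Δ/Δ with both Pzev promoters from 0 to 12 h, and −0.19, 0.45, 0.23, 0.44, 1.34 and 2.47 in WT. HAP3 was at 0.22 in kar4Δ/Δ and 1.92 in WT at 12 h, HAP2 at 0.44 in kar4Δ/Δ and 0.31 in WT, and HAP5 at −0.31 in kar4Δ/Δ and −1.09 in WT. NDT80, the activator of middle meiosis, was at 1.27 in kar4Δ/Δ and 6.04 in WT at 12 h. In the other backgrounds HAP4 at 12 h was at −0.28 in kar4Δ/Δ and 0.21 in WT (Pzev-IME1), and at 0.36 in kar4Δ/Δ and −0.29 in WT (endogenous promoters). The part of either regulator in the late difference was not tested. RIM4 was at 0.23 in kar4Δ/Δ and 3.21 in WT at 0 h with both Pzev promoters, so those strains already differed at the start.

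With Pzev-IME1, most of the genes stood lower in kar4Δ/Δ than in WT at 2 h. At that time KGD1 (−1.38), SDH1 (−1.37), CYC1 (−1.26), SDH2 (−1.14), NDI1 (−1.12) and SDH4 (−1.02) were at least 2-fold lower in kar4Δ/Δ, 6 of 47, against 7.80% of all genes, and none was higher, against 7.37% of all genes. Of the 47, 44 had a negative difference at 2 h, with a median of −0.57, against a median of 0.003 over all genes. SDH1 read −0.20 in kar4Δ/Δ and 1.17 in WT at 2 h, and 1.17 in kar4Δ/Δ and 0.83 in WT at 6 h. NDI1 read −0.90 in kar4Δ/Δ and 0.22 in WT at 2 h, and 0.33 in kar4Δ/Δ and 0.13 in WT at 6 h. The median difference was 0.33 at 4 h, 0.45 at 6 h, 0.25 at 8 h and 0.17 at 12 h. At 12 h CYC7 (1.83) and CYC1 (1.15) were the genes at least 2-fold higher, against 2.31% of all genes, and none was lower, against 5.37% of all genes.

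With endogenous promoters 1 gene, CYC7 (−1.03), was at least 2-fold lower in kar4Δ/Δ at 12 h, against 1.69% of all genes, and none was higher, against 1.09% of all genes. It was also the 1 gene at least 2-fold apart at 0 h, where it was higher by 1.09. That 0 h value comes from the kar4Δ/Δ column that did not show the deletion. After quantile normalization CYC7 did not differ at 12 h (0), no gene was 2-fold lower, against 3.11% of all genes, and IDH1 (1.27) and FUM1 (1.03) were higher, against 2.69%. At 2, 4, 6 and 8 h none of the 47 was 2-fold apart in either direction, against 1.54% to 2.88% of all genes lower and 0.831% to 2.34% higher.

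**Figure D4:**
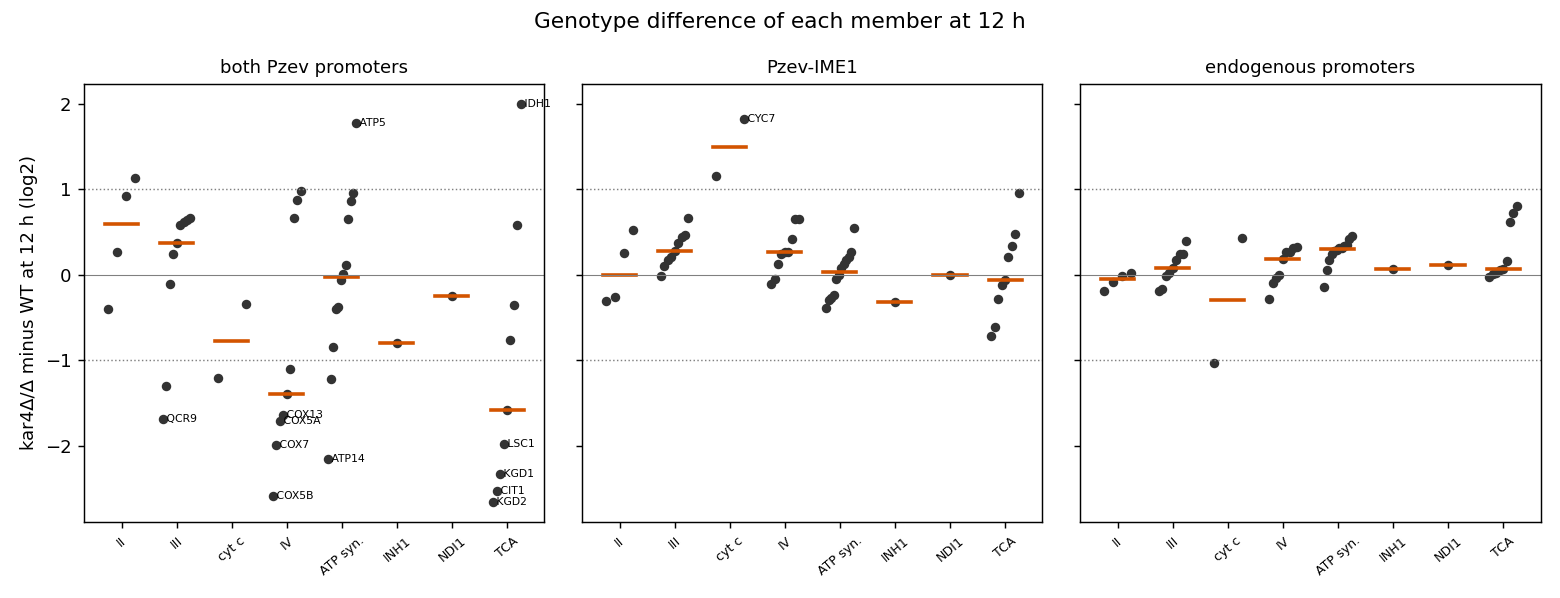
Difference in log2 fold change, kar4Δ/Δ minus WT, at 12 h for each of the 47 genes (points) by group, in 3 promoter backgrounds (panels); orange bars are group medians and dotted lines mark 2-fold. With both Pzev promoters 16 genes lie at or below −1 and 3 at or above 1, with Pzev-IME1 CYC1 and CYC7 lie above 1, and with endogenous promoters CYC7 lies below −1.

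COX5B and CYC7, the isoforms favoured at low oxygen, departed most from the rest. Over the 35 columns the course of COX5B correlated with the median course of the 47 genes at −0.42, that of CYC7 at −0.40 and that of ACO1 at −0.19, the 3 lowest values, against 0.94 for ATP7, the highest. The aerobic isoforms stood at 0.82 (COX5A) and 0.18 (CYC1). COX5B (YIL111W, chromosome IX, 155222 to 155765) read −0.53, 0.24, 0.67, 1.15, 2.13 and 3.41 in WT with both Pzev promoters from 0 to 12 h. In kar4Δ/Δ with both Pzev promoters it read −0.07, 0.32, 0.06, −0.02, 0.17 and 0.83. With Pzev-IME1 it was at 0.74 in kar4Δ/Δ and 0.09 in WT at 12 h, and with endogenous promoters at 0.63 in kar4Δ/Δ and 0.91 in WT. Its aerobic partner COX5A (YNL052W, chromosome XIV, 531725 to 532186) was at or below 0 in all 6 strains at 12 h, from −1.71 in kar4Δ/Δ to −0.01 in WT, both with both Pzev promoters. The change of COX5B exceeded that of COX5A at 12 h by 2.54 in kar4Δ/Δ and 3.42 in WT (both Pzev), by 1.14 in kar4Δ/Δ and 0.38 in WT (Pzev-IME1), and by 1.00 in kar4Δ/Δ and 1.55 in WT with endogenous promoters. These are differences of change, not of transcript number.

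CYC7 (YEL039C, chromosome V, 79636 to 79977) had the highest levels of the list. In kar4Δ/Δ it read 1.51, 4.73, 4.80, 4.54, 4.01 and 4.87 (both Pzev), 2.15, 3.98, 5.65, 5.28, 4.91 and 5.14 (Pzev-IME1), and 1.09, 1.87, 2.51, 2.55, 2.50 and 2.69 (endogenous), from 0 to 12 h. In WT it read 1.00, 4.32, 5.0, 5.21, 5.22 and 5.21 (both Pzev), 1.56, 3.98, 4.23, 3.74, 3.31 and 3.31 (Pzev-IME1), and 0, 2.25, 3.04, 3.07, 3.42 and 3.72 (endogenous). Every strain was thus higher from 2 h on than at 0 h, although after quantile normalization the 12 h value lay below that at 0 h in kar4Δ/Δ with both Pzev promoters (−0.34), and in the Pzev-IME1 strains of both genotypes (−0.92 in kar4Δ/Δ, −0.63 in WT). The genotype difference had no single sign: with Pzev-IME1 kar4Δ/Δ was the higher from 4 h on, and with endogenous promoters WT was the higher from 2 h on.

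CYC1 (YJR048W, chromosome X, 526335 to 526664) was high only in the strains with Pzev promoters, and there only from 2 h on. With Pzev-IME1 it read −1.46, 1.21, 3.75, 3.23, 2.52 and 2.01 in kar4Δ/Δ and −0.73, 2.48, 2.18, 1.89, 1.28 and 0.86 in WT. With both Pzev promoters it read −0.60, 2.38, 1.99, 2.37, 1.44 and 0.20 in kar4Δ/Δ and 0.51, 1.34, 0.90, 0.77, 1.10 and 1.41 in WT. With endogenous promoters it stayed between −0.10 and 0.51 in kar4Δ/Δ and between −0.38 and 0.32 in WT. In kar4Δ/Δ the highest value thus came at 4 h (Pzev-IME1) and at 2 h (both Pzev), and at 12 h the genotypes stood in opposite order in those backgrounds. The strains with Pzev promoters also differed in HAP1, an oxygen regulator outside the HAP complex. At 0 h HAP1 was at −1.79 in kar4Δ/Δ and −1.10 in WT (Pzev-IME1), and at −1.16 and −1.51 (both Pzev). With endogenous promoters HAP1 was at −0.41 in kar4Δ/Δ and −0.38 in WT at 12 h. Its part in the course of CYC1 was not tested.

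**Figure D5:**
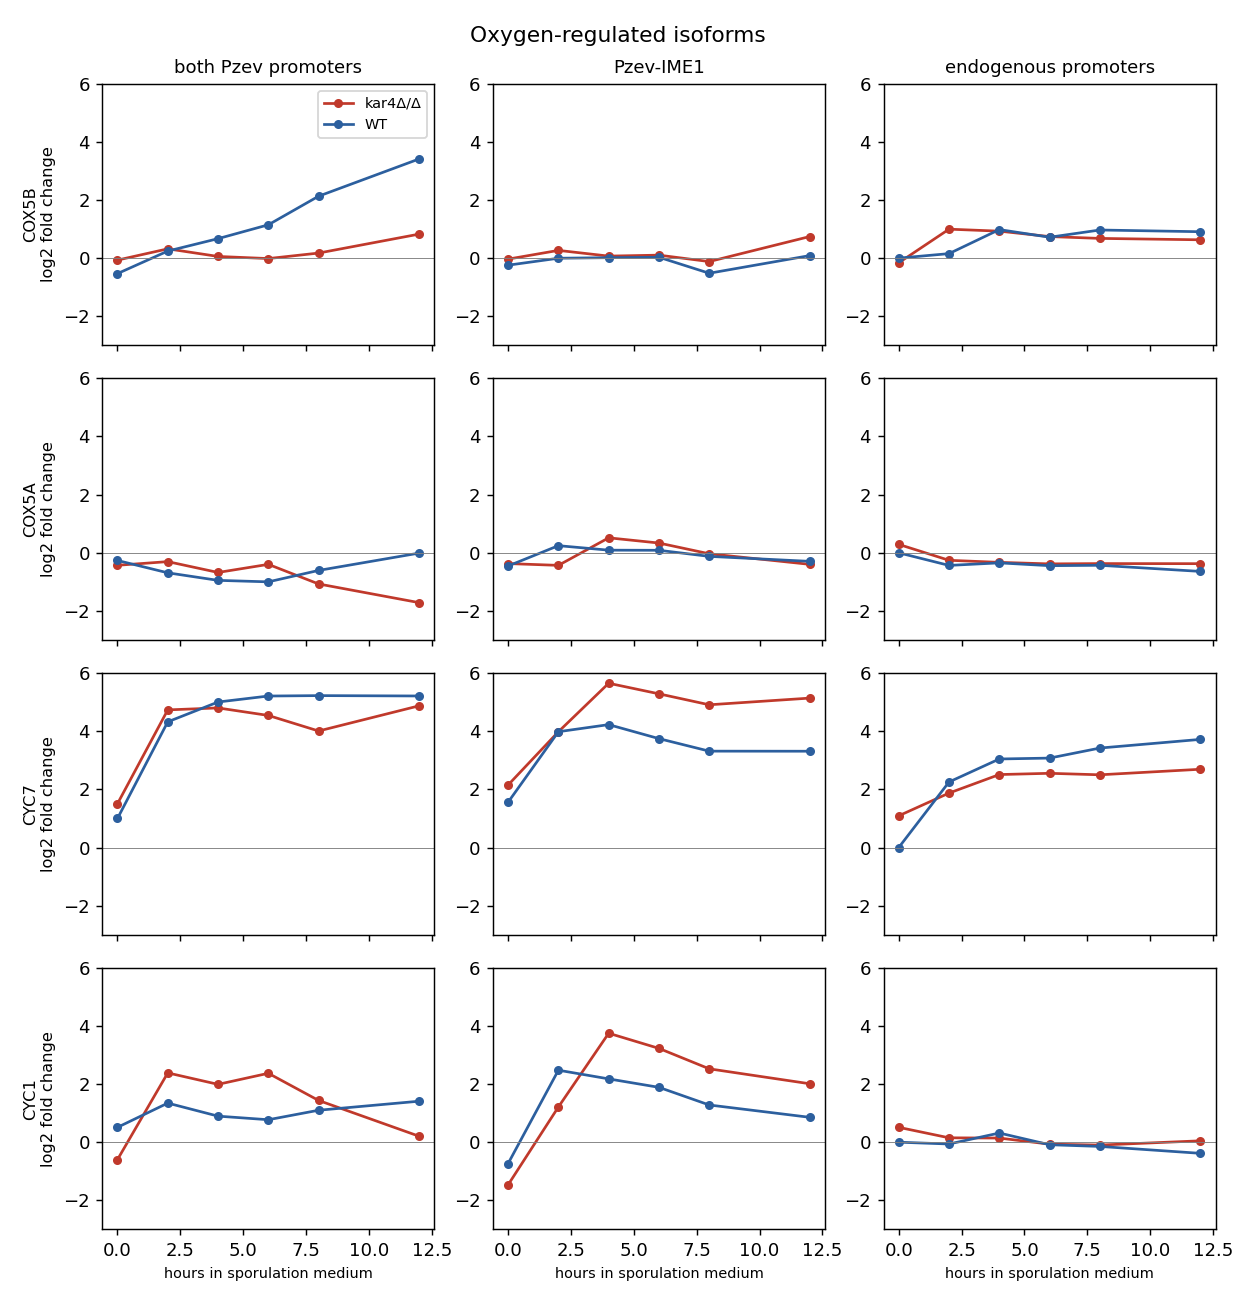
Log2 fold change against hours in sporulation medium for COX5B, COX5A, CYC7 and CYC1 (rows) in 3 promoter backgrounds (columns), kar4Δ/Δ in red and WT in blue. COX5B reaches 3.41 in WT with both Pzev promoters against 0.83 in kar4Δ/Δ, and CYC1 reaches 3.75 in kar4Δ/Δ with Pzev-IME1 against 2.48 in WT.

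The strains with both Pzev promoters were next set against those with Pzev-IME1, which lack Pzev-RIM4. In the authors' strain list, those with both Pzev promoters carry Z3EV on both homologs, and those with Pzev-IME1 do not. Selection markers differ too, so these effects and that of Pzev-RIM4 cannot be told apart. At 12 h in kar4Δ/Δ 23 of 47 genes were at least 2-fold lower with both inducible promoters, against 9.13% of all genes, and none was higher, against 6.23% of all genes. These were 8 of 9 complex IV genes, 8 of 12 ATP synthase genes, 4 of 9 complex III genes, SDH4, CYC1 and INH1, with no TCA enzyme among them. ATP14 (−1.82), CYC1 (−1.81) and COX9 (−1.67) were the lowest. In WT 18 were lower, against 20.3% of all genes, with ATP5 (−2.54), IDH1 (−2.12) and COX4 (−1.90) the lowest, and 9 were higher, against 24% of all genes. The 9 were COX5B (3.32), KGD1 (2.07), CYC7 (1.90, but −0.23 after quantile normalization), KGD2 (1.87), LSC2 (1.74), CIT1 (1.66), COR1 (1.36), ACO1 (1.35) and LSC1 (1.25), so that 6 of 9 TCA enzymes were among them. The difference between genotypes was not tested. After quantile normalization 2 genes were lower in kar4Δ/Δ, and 3 were lower and 2 higher in WT, against 1.97%, 7.53% and 8.93% of all genes on that scale. The count in either genotype thus depends on the scale.

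The other genes of the pathway, taken from lists of assembly factors, alternative electron donors and partner subunits, were compared for the same conditions. With both Pzev promoters at 12 h, 14 of 33 assembly factors of complexes II to V and cytochrome c were at least 2-fold lower in kar4Δ/Δ than in WT and 2 were higher, against 25.2% and 17.9% of all genes, with a median of −0.62. SCO1, which delivers copper to complex IV, was at −0.54 in kar4Δ/Δ and 2.12 in WT, and FMC1, an ATP synthase assembly factor, at −0.87 in kar4Δ/Δ and 2.01 in WT. PET117, a complex IV assembly factor, was an exception, with −0.81 in kar4Δ/Δ and −3.69 in WT. LAT1, the acetyltransferase of pyruvate dehydrogenase, was at −0.66 in kar4Δ/Δ and 2.16 in WT, while PDA1 and PDB1 of the same complex were at −0.37 and −0.71 in kar4Δ/Δ and at −0.77 and −0.96 in WT. With Pzev-IME1 2 of the 33 assembly factors were lower at 12 h, against 5.37% of all genes, and with endogenous promoters none was 2-fold apart, against 1.69% lower and 1.09% higher. ATP10, another ATP synthase assembly factor, was at 2.38 in kar4Δ/Δ and 2.22 in WT (both Pzev), at 2.00 in kar4Δ/Δ and 2.52 in WT with Pzev-IME1, and at 0.23 in kar4Δ/Δ and 0.18 in WT with endogenous promoters.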

How the data were processed

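PolyA RNA of 72 libraries (36 conditions, 2 replicates each) was sequenced. The authors aligned reads to sacCer3 with BWA-MEM, counted them per gene with htseq-count and used DESeq2, in versions not given in the sources used here. The deposited values are the authors' log2 fold changes against WT with endogenous promoters at 0 h, with replicates combined; strand setting and shrinkage are not given. Such values hold no counts or errors, so depth and precision are unknown and no test was run. Of 6660 genes, 164 with a missing value were left out; 16 unnamed columns were not used. Differences were formed by subtracting columns, in which the reference cancels only if fold changes add, and 2-fold sizes were counted. Quantile normalization, column median centring, other fold sizes (1.5 and 4), means and another start of the course were tried. Genes named were the isoform pairs, NDI1, INH1, CIT1, the 3 lowest and 3 highest genes of each 12 h comparison, members of counts up to 5, and the 3 genes correlating least with the median course; others named were chosen after their values were seen. The genes and lists were chosen with earlier results of these data known. Positions and 500-base promoters came from RefSeq R64, the same assembly as sacCer3. The counting was tested on simulated data. Python 3.11.15 with pandas 2.3.3 and numpy 2.4.6 was used.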

Additional observations from a re-analysis of the deposited data

Results flagged for a closer look

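CYC1 and CYC7 differed in the sign of the genotype difference between promoter backgrounds, by at least 2-fold each way at the same time. These differences were not tested, since each condition has 1 combined value. CYC1, kar4Δ/Δ minus WT, was 1.04 (both Pzev) and −1.26 (Pzev-IME1) at 2 h, and −1.21 (both Pzev) and 1.15 (Pzev-IME1) at 12 h. CYC7 was −1.22 (both Pzev; 0.89 after quantile normalization) and 1.59 (Pzev-IME1) at 8 h, and 1.83 (Pzev-IME1) and −1.03 (endogenous; 0 after quantile normalization) at 12 h.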

How the results depend on the processing

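No paired analysis was possible because the table gives 1 combined value per condition, and for the same reason no replicate could be left out. A shift of 0.2 (log2) in the median of the 47 genes was taken as the size to name, since no replicate spread exists. Column median centring moved none of the 15 medians by that much. After quantile normalization the median of kar4Δ/Δ minus WT with both Pzev promoters at 8 h was −0.046; that of 12 h minus 0 h was −0.83 in kar4Δ/Δ and −0.60 in WT with both Pzev promoters, and −0.85 in kar4Δ/Δ and −0.97 in WT with endogenous promoters; that of both Pzev promoters minus Pzev-IME1 at 12 h was −0.40 in kar4Δ/Δ and −0.11 in WT, and that of Pzev-IME1 minus endogenous promoters 0.37 in kar4Δ/Δ and 0.48 in WT. The cause was not tested. The reference column, WT with endogenous promoters at 0 h, was kept at 0 in that step. CYC7 turned to 0.89 in kar4Δ/Δ minus WT (both Pzev promoters, 8 h), to −0.34 (kar4Δ/Δ, both Pzev promoters), −0.92 (kar4Δ/Δ, Pzev-IME1) and −0.63 (WT, Pzev-IME1) in 12 h minus 0 h, to −0.27 in kar4Δ/Δ for Pzev-IME1 minus endogenous promoters and to −0.23 in WT for both Pzev promoters minus Pzev-IME1. With means, kar4Δ/Δ minus WT at 8 h with both Pzev promoters was −0.013, and 12 h minus 0 h was −0.90 in kar4Δ/Δ and −0.73 in WT with both Pzev promoters and 0.044 in kar4Δ/Δ with Pzev-IME1. Started from 2 h, the course to 12 h was 0.27 in kar4Δ/Δ and −0.46 in WT with Pzev-IME1, and −0.27 in kar4Δ/Δ and −0.30 in WT with endogenous promoters. Without COX5B and CYC7, both Pzev promoters minus Pzev-IME1 in WT was −0.61. Counted from each strain's own 0 h, a choice made after seeing the data, kar4Δ/Δ minus WT with both Pzev promoters was 0.53 at 8 h and 0.0076 at 12 h.

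Of 30 counts, quantile normalization moved 17 by over 1.5 times, median centring none and dropping COX5B and CYC7 4. The quantile counts that moved stand with their comparisons above. For kar4Δ/Δ minus WT with both Pzev promoters at 12 h, 19 genes were 1.5-fold and 5 were 4-fold lower, in place of 16.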

Other observations

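The mitochondrial ribosomal proteins, a list drawn from the annotation after the values had been seen, resembled the respiratory genes in the late course of kar4Δ/Δ with both Pzev promoters. Of 79 with values, 46 were at least 2-fold lower and 0 higher at 12 h than at 0 h in kar4Δ/Δ, against 18.5% and 20.6% of all genes, while 9 were lower and 16 higher in WT, against 21.3% and 26.6%. For kar4Δ/Δ minus WT at 12 h, 31 were lower and 3 higher, against 25.2% and 17.9% of all genes, with a median of −0.83. With endogenous promoters 0 of 79 were 2-fold apart at 12 h, against 1.69% of all genes lower and 1.09% higher.

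Paralogs of the TCA enzymes did not follow them. SDH9, a paralog of SDH1, was at 3.20 in kar4Δ/Δ and 4.04 in WT with both Pzev promoters at 12 h, at 2.71 in kar4Δ/Δ and 2.66 in WT with Pzev-IME1, and at 2.58 in kar4Δ/Δ and 3.23 in WT with endogenous promoters. CIT2 and IDP2, the peroxisomal citrate synthase and the cytosolic isocitrate dehydrogenase, were at −1.99 and −2.60 in kar4Δ/Δ and at −3.14 and −3.46 in WT with both Pzev promoters at 12 h, and so lay below CIT1. GUT2, the mitochondrial glycerol 3-phosphate dehydrogenase, was at −1.77 in kar4Δ/Δ and 2.06 in WT in that background, and at −1.81 in kar4Δ/Δ and −1.82 in WT with Pzev-IME1.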
